A study of Mus musculus with 6 samples.

Results

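The fatty acid and sterol synthesis genes are a set of 36 genes chosen by their known function, out of 43346 in the count table. The choice was made with earlier results of these data known. All 36 genes passed the filter on low counts and were tested. They fall into 14 genes that make, elongate or desaturate fatty acids, 5 genes of the SREBP system that switches both branches on, and 17 genes of cholesterol synthesis and sterol handling. They were measured by RNA-seq of limb bone (from hindlimbs and forearms, cleaned of soft tissue) of C57BL/6 pups 1 day after birth, in 3 libraries labelled Hdac3 CKO and 3 labelled WT. In the Hdac3 CKO pups the histone deacetylase gene Hdac3 was targeted with Prx1. Prx1 (Prrx1) regulatory sequence drives Cre in limb bud mesenchyme, the source of bone, cartilage and tendon, so blood cells and muscle fibres of these bones would keep the gene. The floxed allele, the Cre status of the WT pups and the sex of the pups are not given in the labels.

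Cells build fatty acids from acetyl-CoA in the cytosol, by way of malonyl-CoA and palmitate, and then elongate and desaturate them for membranes and stored fat. Cholesterol is built from the same acetyl-CoA through mevalonate, farnesyl diphosphate and squalene. Both branches are driven by the SREBP transcription factors, which are held in the endoplasmic reticulum by INSIG proteins when sterols are plentiful and are carried to the Golgi by SCAP when they are scarce. SREBP-1c acts mainly on fatty acid genes and SREBP-2 mainly on sterol genes. HDAC3 is the enzyme of the NCoR and SMRT corepressor complexes of nuclear receptors, and in mouse liver its loss is known to raise lipid synthesis genes.

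Values per library are TMM-normalised CPM, which are reads scaled by library totals after adjustment by TMM factors of 0.88 to 1.09. A log2 fold change is that of Hdac3 CKO over WT. Hdac3 itself stood at 31.8, 29.4 and 28.3 CPM in Hdac3 CKO and at 48.4, 47.4 and 50.3 CPM in WT, lower by a log2 fold change of -0.71 ± 0.12 (SE; edgeR adjusted p = 0.027). Bone genes were abundant, with Col1a1 at 36001 to 55680 CPM in Hdac3 CKO and 23530 to 31116 CPM in WT. Muscle and cartilage genes were present as well. The summed CPM of 8 muscle genes was 44574, 28879 and 26742 in Hdac3 CKO replicates 1, 2 and 3, against 24598 to 29370 in WT, so Hdac3 CKO replicate 1 stood apart. The summed CPM of 8 cartilage genes was 14560 in Hdac3 CKO replicate 3 and 6911 in WT replicate 3, against 802 to 1450 in the other 4 libraries. Hdac3 CKO replicate 3 also differed in sex-linked genes, with Xist at 19.3 CPM against 700 to 2094 CPM in the other libraries.

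In Hdac3 CKO bones 3 of the 14 fatty acid synthesis genes rose and 0 fell, and all 3 encode desaturases, the enzymes that place double bonds in fatty acids. They were Scd1 and Scd2, which make monounsaturated fatty acids, and Fads2, which desaturates polyunsaturated ones. Each stood about as far above WT as the others, at 1.66-fold to 1.70-fold. The other 11 genes of this branch did not pass the test, although 9 of the 14 had Hdac3 CKO values that lay wholly above WT, where 11.5% of all tested genes did. Of the 17 sterol synthesis genes 0 rose and 0 fell, and their median log2 fold change was -0.00096, with 9 of the 17 below 0 where 49.9% of all tested genes were. Of the 5 SREBP system genes 0 rose and 0 fell. Across all tested genes 0.703% rose, 0.475% fell, and the median log2 fold change was 0.00098. No test was made of one branch against the other. Genes that did not pass may still differ, because the same procedure missed most 2-fold differences in simulated counts.

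Scd2, a stearoyl-CoA desaturase broadly expressed outside liver and fat (ENSMUSG00000025203, mm10 chr19:44293676-44306864), stood at 673, 549 and 673 CPM in Hdac3 CKO and at 362, 384 and 374 CPM in WT. Its lowest Hdac3 CKO library lay well above its highest WT library. Scd2 averaged 632 ± 71.4 CPM in Hdac3 CKO and 373 ± 11.1 CPM in WT (SD, n = 3 each), and rose by 0.76 ± 0.14 (SE) on the log2 scale (edgeR quasi-likelihood, adjusted p = 0.036).

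Scd1, the stearoyl-CoA desaturase best known from liver, fat and skin glands (ENSMUSG00000037071, chr19:44394451-44407709), stood at 49.1, 55.2 and 56.6 CPM in Hdac3 CKO and at 29.1, 33.9 and 34.2 CPM in WT. All 3 Hdac3 CKO libraries were again higher than any WT library. It averaged 53.6 ± 3.98 CPM in Hdac3 CKO and 32.4 ± 2.82 CPM in WT (SD, n = 3 each), and rose by 0.73 ± 0.13 (SE) on the log2 scale (edgeR adjusted p = 0.033). Scd1 and Scd2 are similar in sequence and lie 87586 bases apart on chromosome 19, and how reads that match both were counted is not given in the sources used here.

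Fads2, the delta-6 desaturase that opens the path from dietary linoleic acid to arachidonic acid (ENSMUSG00000024665, chr19:10064164-10101503), stood at 46.7, 37.0 and 37.4 CPM in Hdac3 CKO and at 22.3, 24.1 and 24.9 CPM in WT. The groups did not overlap, and Hdac3 CKO replicate 1 was the highest. It averaged 40.3 ± 5.49 CPM in Hdac3 CKO and 23.8 ± 1.31 CPM in WT (SD, n = 3 each), and rose by 0.76 ± 0.14 (SE) on the log2 scale (edgeR adjusted p = 0.036). A two-sided exact permutation of the libraries gave p = 0.1 for each of these desaturases, and 3 against 3 cannot go lower. None of the 3 genes shares exon bases with another protein-coding gene in GENCODE M21, and Scd2 contains Mir5114 over 61 exon bases.

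**Figure D1:**
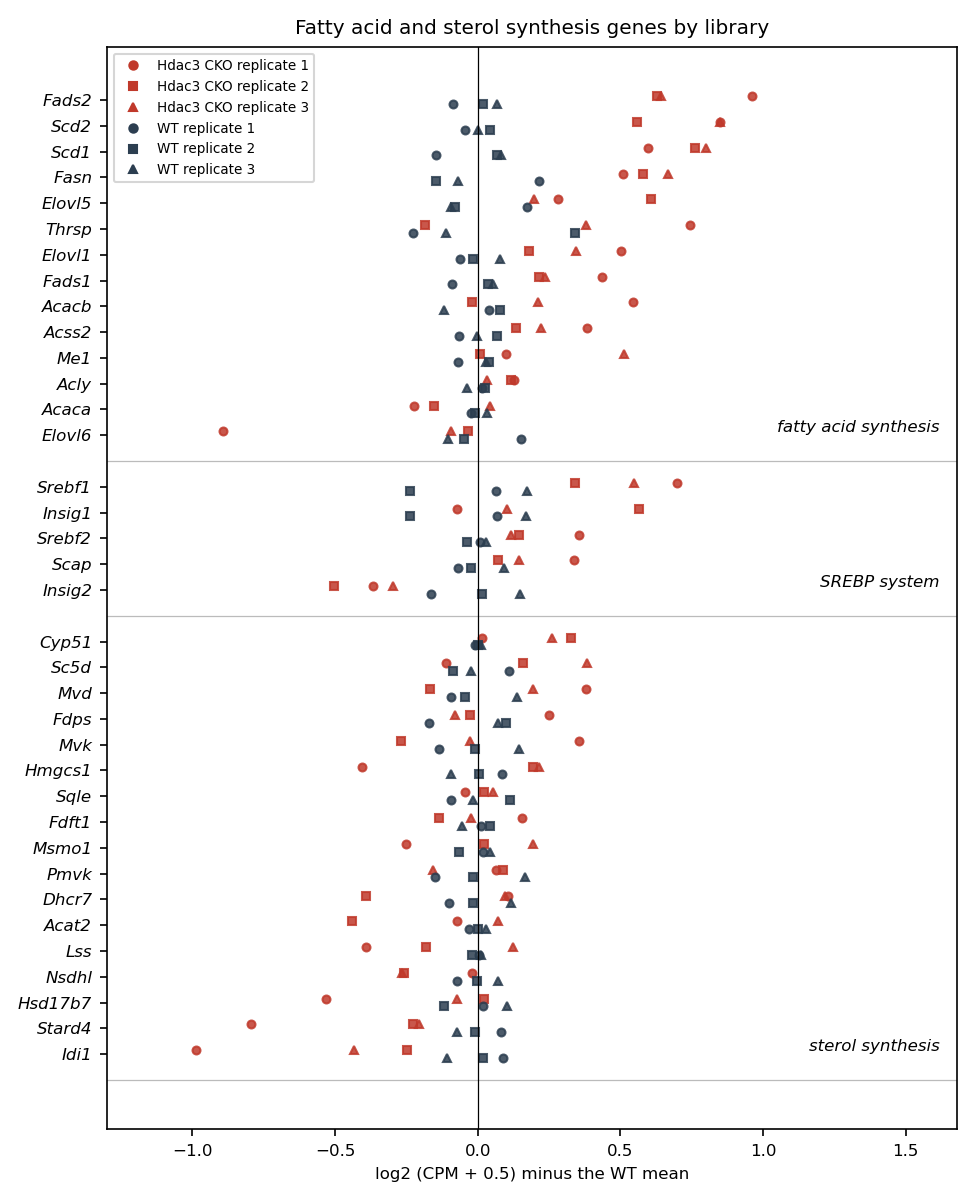
Each of the 36 genes in each of the 6 libraries, as log2(CPM + 0.5) minus the WT mean of that gene, with Hdac3 CKO in red and WT in dark blue and the replicate shown by the marker. In 9 of the 14 fatty acid synthesis genes, and in Srebf1 and Srebf2, every red point lies to the right of every blue point. The 9 are Fads2, Scd2, Scd1, Fasn, Fads1, Elovl1, Elovl5, Acss2 and Acly. In Insig2 every red point lies to the left. In the sterol synthesis genes the points are mixed except in Cyp51 (red to the right) and in Stard4 and Idi1 (red to the left). Of all tested genes 11.5% lay wholly above WT and 10.9% wholly below.

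The promoters of 29 of the 36 members were matched by symbol to RefSeq sequence of build GRCm38.p6, from 250 bases before to 50 bases after the annotated start. Scd1, Scd2, Fads1, Fdps, Fdft1, Sqle and Stard4 were not matched. Shown are Fads2, which rose, Fasn, which came nearest to passing among the others, and Hmgcs1, whose log2 fold change was near 0. Capitals mark matches on either strand to TCACNCCAC (the core of a sterol response element, to which SREBPs bind), CCAAT (bound by NF-Y, a partner of SREBPs), GGGCGG (a GC box) and CACGTG (an E box).
Fads2, chr19:10101454-10101753, minus strand: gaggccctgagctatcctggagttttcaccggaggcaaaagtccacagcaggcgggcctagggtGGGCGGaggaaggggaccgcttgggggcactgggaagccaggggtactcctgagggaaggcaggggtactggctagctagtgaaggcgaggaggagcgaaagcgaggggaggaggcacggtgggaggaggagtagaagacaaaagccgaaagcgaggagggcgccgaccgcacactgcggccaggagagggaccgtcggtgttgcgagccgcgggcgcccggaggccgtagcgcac
Fasn, chr11:120824498-120824797, minus strand: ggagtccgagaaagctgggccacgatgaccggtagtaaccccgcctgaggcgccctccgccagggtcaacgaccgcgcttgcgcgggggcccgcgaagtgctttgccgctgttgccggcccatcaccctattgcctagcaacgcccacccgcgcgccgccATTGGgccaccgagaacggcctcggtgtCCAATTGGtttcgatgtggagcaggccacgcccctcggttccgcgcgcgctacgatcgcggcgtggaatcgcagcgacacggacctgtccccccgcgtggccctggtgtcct
Hmgcs1, chr13:119690101-119690400, plus strand: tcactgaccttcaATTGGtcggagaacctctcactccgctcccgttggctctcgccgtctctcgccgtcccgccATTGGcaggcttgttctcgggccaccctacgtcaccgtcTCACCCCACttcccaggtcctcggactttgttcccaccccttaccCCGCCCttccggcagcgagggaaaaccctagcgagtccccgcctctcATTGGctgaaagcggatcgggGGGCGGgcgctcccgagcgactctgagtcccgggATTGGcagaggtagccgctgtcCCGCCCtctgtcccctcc

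The Fads2 window held a single GC box and neither a CCAAT box nor the sterol element. The Fasn window held 3 CCAAT boxes, which begin 90, 62 and 59 bases before the start, and the last 2 overlap and run together in capitals. The Hmgcs1 window held the sterol element 137 bases before the start, with 4 CCAAT and 3 GC boxes around it. Hmgcs1 was the only member with a TCACNCCAC match in the windows searched, which 1.24% of 32851 mouse promoter entries contain. CCAAT was found in the windows of 12 of 13 sterol genes, 8 of 11 fatty acid genes and 4 of 5 SREBP system genes with an entry, against 41.1% of genes with an entry. GGGCGG was found in 12 of the 13, 5 of the 11 and 5 of the 5, against 38.2% of genes, and CACGTG in 3, 1 and 2, against 8.09%. A match is a run of letters and not a measured binding site.

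The calls of the 3 desaturases were close to the threshold. All 3 genes still passed without Hdac3 CKO replicate 1, which had the high muscle values, at log2 fold changes of 0.78 for Scd1, 0.70 for Scd2 and 0.64 for Fads2, where 0.559% of all tested genes rose. Without Hdac3 CKO replicate 2 Scd2 and Fads2 passed and Scd1 had an adjusted p of 0.068 (edgeR), where 0.503% of genes rose. Without Hdac3 CKO replicate 3, or without WT replicate 1, 2 or 3, 0 of the 3 passed, at adjusted p-values of 0.088 to 0.17. Those fits called 46, 23, 35 and 105 genes in all, against 238 with all 6 libraries, and 0.174%, 0.0584%, 0.0533% and 0.287% of tested genes rose. Also 0 of the 36 members passed with library totals (0.287% of genes rose), with the cartilage or muscle covariate (0.401% and 0.257%), or in limma on log2(RPKM + 1) or log2(RPKM + 0.1) (0.0198% and 0.203%). Without both replicates 3, 0 of all tested genes were called by edgeR and 2309 had an unadjusted p under 0.05. Over the 20 alternatives tried, the log2 fold change of Scd1 stood between 0.52 and 0.79, Scd2 between 0.57 and 0.85, and Fads2 between 0.57 and 0.85.

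**Figure D2:**
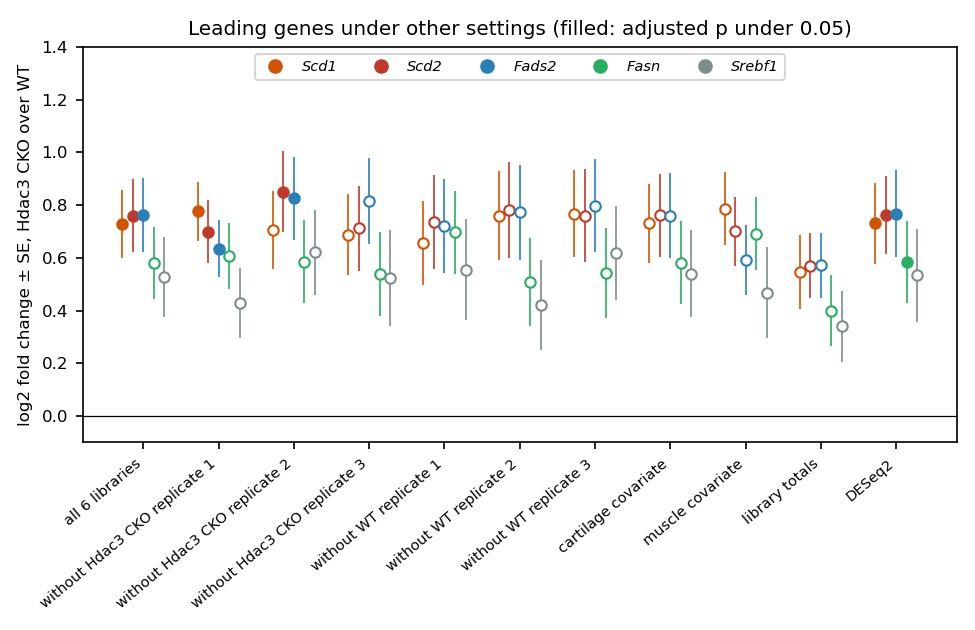
Log2 fold change of Hdac3 CKO over WT with its standard error for Scd1, Scd2, Fads2, Fasn and Srebf1, with all 6 libraries and under 10 of the alternatives, with filled points where the adjusted p was under 0.05. All points lie above 0.3. The points of Scd1, Scd2 and Fads2 are filled with all 6 libraries, without Hdac3 CKO replicate 1 and in DESeq2, those of Scd2 and Fads2 also without Hdac3 CKO replicate 2, and that of Fasn in DESeq2 alone.

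The enzymes of the committed path did not pass the test. Fasn, the fatty acid synthase that assembles palmitate (ENSMUSG00000025153, chr11:120805940-120824178), came nearest. It stood at 142, 149 and 159 CPM in Hdac3 CKO and at 115.9, 90.1 and 95.1 CPM in WT, with no overlap, and its log2 fold change was 0.58 ± 0.14 (SE; edgeR adjusted p = 0.086). DESeq2 gave Fasn an adjusted p of 0.0086, so its call depends on the tool, and DESeq2 called 852 genes in all (2.36% of tested genes rose) against 238 in edgeR. limma-voom called Scd1, Scd2 and Fads2 alone among the members, and 0.579% of tested genes rose there. Upstream of Fasn, Acly, which splits citrate into acetyl-CoA, stood at 79.7, 79.2 and 74.7 CPM in Hdac3 CKO and at 73.7, 74.3 and 71.1 CPM in WT. Its Hdac3 CKO values were all higher, by little, at 0.09 ± 0.11 (SE). Acss2, which makes acetyl-CoA from acetate, stood at 0.25 ± 0.12.

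Acaca, the cytosolic acetyl-CoA carboxylase that makes malonyl-CoA for synthesis, stood at 35.0, 36.8 and 42.2 CPM in Hdac3 CKO and at 40.3, 40.7 and 41.9 CPM in WT, and the groups overlapped. Its log2 fold change was -0.11, with a 95% interval of -0.39 to 0.17. Acacb, the mitochondrial carboxylase whose malonyl-CoA restrains fatty acid oxidation, stood at 0.26 ± 0.16, with Hdac3 CKO replicate 1 at 62.7 CPM and the other 2 Hdac3 CKO libraries at 42.2 and 49.7 CPM. Me1, the malic enzyme that supplies NADPH, stood at 0.23 ± 0.16. Thrsp, a small protein that promotes lipogenesis, varied widely within both genotypes, with 26.4, 13.6 and 20.3 CPM in Hdac3 CKO and 13.2, 19.8 and 14.3 CPM in WT.

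Among the elongases, which add carbons to finished fatty acids, Elovl1 and Elovl5 were higher in every Hdac3 CKO library and did not pass the test. Elovl5, which elongates the products of Fads2, stood at 68.2, 85.8 and 64.3 CPM in Hdac3 CKO and at 63.3, 53.1 and 52.5 CPM in WT, at 0.37 ± 0.15 (edgeR adjusted p = 0.29). Elovl1, which acts on very long saturated chains, stood at 0.35 ± 0.13 (edgeR adjusted p = 0.25). Elovl6, which turns palmitate into stearate, the substrate of the Scd enzymes, was low in 1 library of Hdac3 CKO. It stood at 13.3, 24.4 and 23.4 CPM in Hdac3 CKO and at 27.9, 24.2 and 23.3 CPM in WT. Without Hdac3 CKO replicate 1 its log2 fold change was -0.08, against -0.30 with all libraries. Fads1, the delta-5 desaturase that follows Fads2 in the same path, stood at 89.7, 77.0 and 78.0 CPM in Hdac3 CKO and at 62.2, 68.0 and 68.8 CPM in WT. Its groups did not overlap, and its log2 fold change was 0.30 ± 0.12 (edgeR adjusted p = 0.30).

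As a group the fatty acid genes had a median log2 fold change of 0.32, and 12 of 14 stood above 0, against 50.1% of all tested genes. The 9 genes whose Hdac3 CKO values lay wholly above WT compare with 11.5% of all tested genes in that direction, and 0 of 14 lay wholly below, against 10.9%. At an unadjusted p under 0.05 the branch held 7 genes, all higher, and 7.79% of all tested genes were higher at that level. By library, the median of the 14 genes relative to the WT mean was 0.47, 0.16 and 0.29 in Hdac3 CKO replicates 1, 2 and 3. It was -0.05, 0.03 and -0.000068 in WT replicates 1, 2 and 3. Hdac3 CKO replicate 1 was the highest Hdac3 CKO library for 8 of the 14 genes and replicate 2 the lowest for 8.

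**Figure D3:**
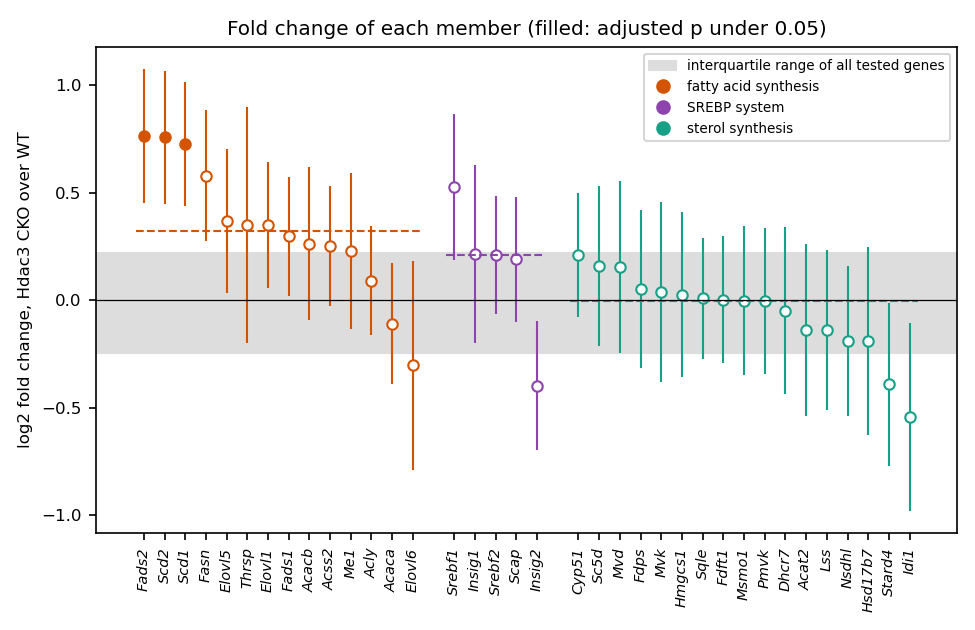
Log2 fold change of each gene with its 95% interval, Hdac3 CKO over WT, in the 3 groups of members, with filled points where the adjusted p was under 0.05 and a dashed line at each group's median. The grey band is the interquartile range of all 20210 tested genes, -0.25 to 0.22. Fads2, Scd2 and Scd1 are the filled points, and 15 of the 17 sterol synthesis genes lie inside the band.

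In the SREBP system, Srebf1, which encodes SREBP-1 (ENSMUSG00000020538, chr11:60199089-60222581), stood at 107, 83.2 and 96.2 CPM in Hdac3 CKO and at 68.6, 55.7 and 74.2 CPM in WT. The groups did not overlap, and the log2 fold change was 0.53 ± 0.15 (SE; adjusted p = 0.15 in edgeR, 0.054 in DESeq2). The counts do not separate the SREBP-1a and SREBP-1c transcripts. Srebf2, which encodes SREBP-2, stood at 133, 115 and 113 CPM in Hdac3 CKO and at 104, 101 and 106 CPM in WT, at 0.21 ± 0.12. Its Hdac3 CKO values were all higher than WT, by a smaller margin than those of Srebf1. Scap, the escort of the SREBP precursors, stood at 0.19 ± 0.13.

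Of the 2 INSIG genes, Insig2 had lower values in Hdac3 CKO and Insig1 had no clear direction. Insig2, the anchor that responds little to sterols, stood at 34.1, 30.9 and 35.8 CPM in Hdac3 CKO and at 39.3, 44.5 and 48.9 CPM in WT (chr1:121304353-121332589). Every Hdac3 CKO library was lower, at -0.40 ± 0.13 (SE; edgeR adjusted p = 0.21). Insig1, itself a target of SREBP, overlapped between the genotypes, with 40.2, 63.0 and 45.5 CPM in Hdac3 CKO and 44.5, 35.8 and 47.7 CPM in WT. At an unadjusted p under 0.05 the SREBP system held Srebf1, higher, and Insig2, lower. Of all tested genes 7.79% were higher and 7.2% lower at that level. DESeq2 and limma-voom called 0 of its 5 genes, against 852 and 176 of the 20210 tested genes.

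The sterol branch showed no shift in common beyond that of all genes, and with library totals, which move the median of all tested genes to -0.18, its median was -0.19. Hmgcs1, which makes HMG-CoA, stood at 57.7, 87.6 and 88.9 CPM in Hdac3 CKO and at 81.3, 76.8 and 71.8 CPM in WT. Here Hdac3 CKO replicate 1 was the lowest of all 6 libraries while the other 2 Hdac3 CKO libraries were the highest, and the log2 fold change of 0.03 had a 95% interval of -0.36 to 0.41. The mevalonate kinases Mvk and Pmvk stood at 0.04 and -0.0031, and Mvd, the decarboxylase after them, at 0.16 ± 0.18. Idi1, which isomerises isopentenyl diphosphate (chr13:8885501-8892451), was the lowest of the branch. It stood at 9.69, 16.5 and 14.4 CPM in Hdac3 CKO and at 20.95, 19.95 and 18.2 CPM in WT. All Hdac3 CKO libraries were lower, at -0.54 ± 0.20 (SE; edgeR adjusted p = 0.24), and at -0.36 without Hdac3 CKO replicate 1.

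From farnesyl diphosphate to squalene and lanosterol the values were close to each other. Fdps, the farnesyl diphosphate synthase, stood at 0.05 ± 0.16. Its GENCODE M21 model has 4208 exon bases against 1241 in the deposited table. The protein-coding gene Gm43738 overlaps 26.7% of those 4208 bases on the same strand, so the level of Fdps may be uncertain too. Fdft1, the squalene synthase, stood at 30.4, 24.8 and 26.9 CPM in Hdac3 CKO and at 27.5, 28.1 and 26.2 CPM in WT. Its log2 fold change was 0.0035, with a 95% interval of -0.29 to 0.30. In GENCODE M21, whose Fdft1 model has 4227 exon bases against 2860 in the deposited table, the neighbouring Ctsb overlaps 18.3% of them on the other strand. Ctsb had 113599 reads over the 6 libraries and Fdft1 7674, so the level of Fdft1 may be uncertain. Sqle, the squalene epoxidase and a rate-limiting step, stood at 25.6, 26.8 and 27.5 CPM in Hdac3 CKO and at 24.7, 28.6 and 26.1 CPM in WT. Its 95% interval, -0.27 to 0.29, does not reach the log2 fold changes of Scd1, Scd2 or Fads2. Lss, which closes the sterol rings, stood at -0.14 ± 0.17.

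The enzymes that turn lanosterol into cholesterol spread over a narrow range as well. Cyp51, the lanosterol demethylase, was the highest. It stood at 34.1, 42.4 and 40.4 CPM in Hdac3 CKO and at 33.4, 33.7 and 34.0 CPM in WT, so the groups came close without overlapping, at 0.21 ± 0.13. Akap9 overlaps 3.76% of the Cyp51 exon bases of GENCODE M21 on the other strand. Sc5d, a desaturase of the sterol ring, stood at 0.16 ± 0.17 and Msmo1, a methyl sterol oxidase, at -0.00096 ± 0.16. Dhcr7, the last reductase of the path, stood at -0.05 ± 0.17. Nsdhl and Hsd17b7, which act together in removing the methyl groups, both stood at -0.19. Acat2, the cytosolic thiolase that condenses acetyl-CoA for mevalonate, stood at -0.14 ± 0.18.

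Stard4, a carrier of cholesterol between membranes and a sterol-regulated gene, stood at 23.0, 34.3 and 34.9 CPM in Hdac3 CKO and at 42.6, 40.02 and 38.3 CPM in WT. Every Hdac3 CKO library was lower, and replicate 1 by the most. The log2 fold change was -0.39 ± 0.17 (SE) with all libraries and -0.23 without Hdac3 CKO replicate 1, with adjusted p-values of 0.32 and 0.40 in edgeR. Idi1 and Stard4 were the 2 sterol genes with an unadjusted p under 0.05, where 7.2% of all tested genes were lower at that level, and DESeq2 and limma-voom called 0 of the 17. Relative to the WT mean, the median of the 17 genes by library was -0.04, -0.13 and 0.06 in Hdac3 CKO replicates 1, 2 and 3 and -0.01, -0.0086 and 0.03 in WT replicates 1, 2 and 3. Hdac3 CKO replicate 1 was the lowest Hdac3 CKO library for 9 of the 17 genes, among them Hmgcs1, Idi1 and Stard4, and the highest for 6, among them Mvk and Mvd.

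Levels between genes were compared on the deposited RPKM, which are scaled per gene length. Scd2 was the most abundant member, at 87.7 ± 9.66 RPKM in Hdac3 CKO and 56.9 ± 6.60 RPKM in WT (SD, n = 3 each), and 98.1% of tested genes had a lower mean RPKM. Scd1 stood at 8.40 ± 0.54 RPKM in Hdac3 CKO and 5.58 ± 0.92 RPKM in WT, so most stearoyl-CoA desaturase transcript in these bones was Scd2. Fads2 stood at 20.3 ± 2.96 RPKM in Hdac3 CKO and 13.1 ± 1.70 RPKM in WT. In WT Fads2 lay below Fads1, which had 15.96 ± 2.14 RPKM, and in Hdac3 CKO above it, where Fads1 had 17.9 ± 1.72 RPKM. The SDs of the 2 genes overlap in both genotypes, but both genes were read in the same libraries. Compared within libraries, the order held in each of the 3 WT and 3 Hdac3 CKO libraries. This order depends on the listed lengths. Fads2 has 1508 bases in the deposited table and 3295 exon bases in GENCODE M21, and Fads1 3456 and 4812. The median over members of the mean RPKM was 10.6 in the fatty acid branch, 11.3 in the SREBP system and 4.14 in the sterol branch, against 2.66 over all tested genes. In the sterol branch Hmgcs1 was the most abundant, at 18.3 ± 3.99 RPKM in Hdac3 CKO and 19.6 ± 1.47 RPKM in WT, and Lss the least, at 0.898 and 1.08 RPKM.

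**Figure D4:**
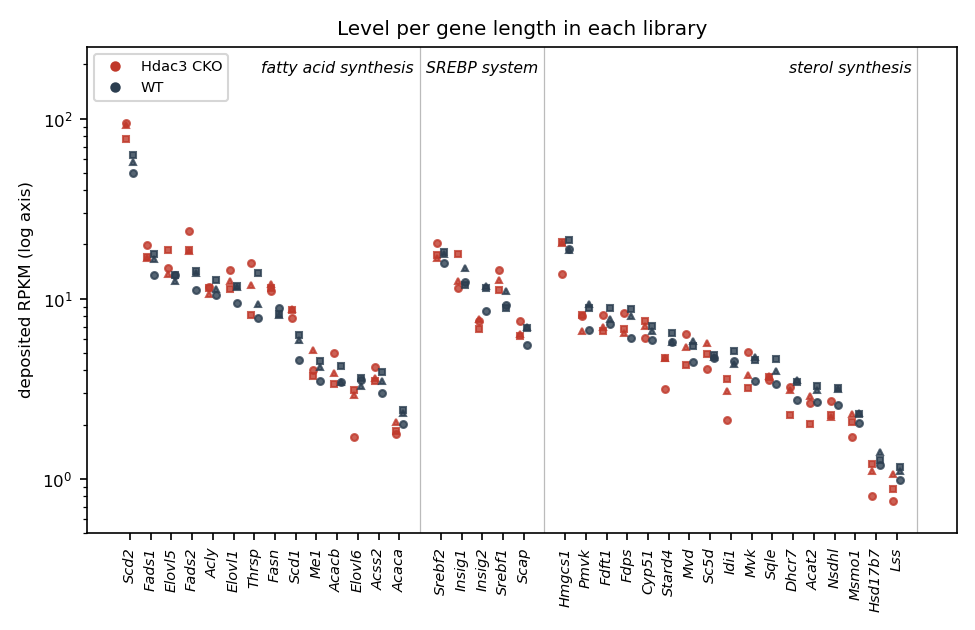
Deposited RPKM of each member in each library on a log axis, ordered within each group by the WT mean, with Hdac3 CKO in red left of WT in dark blue, and circles, squares and triangles for replicates 1, 2 and 3. Scd2 stands above all other members, and Hsd17b7 and Lss are the lowest.

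Other genes of the same pathways were read from 3 lists. Of 24 tested genes of fatty acid and glyceride synthesis outside the set, 0 rose and 0 fell in edgeR, with 2 at an unadjusted p under 0.05, a level that 15% of all tested genes reached. They were Scd3, a further desaturase of the Scd cluster, at 0.74 ± 0.28 from a low level, and Dgat1, which makes triglycerides, at -0.37 ± 0.16. Of 18 genes of sterol synthesis, uptake and export 1 rose and 0 fell. It was Apoe, a lipoprotein component secreted by macrophages and other cells, which stood at 288, 215 and 225 CPM in Hdac3 CKO and at 114, 96.9 and 109 CPM in WT. Apoe rose by 1.18 ± 0.15 (SE) on the log2 scale (edgeR adjusted p = 0.014). In that list 2 genes, Apoe among them, had an unadjusted p under 0.05, both higher. There 14 of the 18 stood above 0, against 50.1% of all tested genes. Of 9 further genes of SREBP control 0 rose and 0 fell in edgeR, with 3 at an unadjusted p under 0.05, all higher, where 7.79% of all tested genes were higher at that level. Syvn1, a ubiquitin ligase of the endoplasmic reticulum, had the smallest p of them, at 0.54 ± 0.12 (edgeR adjusted p = 0.080), and DESeq2 called it at an adjusted p of 0.0095.

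Several cell types of the bone also make lipids, and in bulk tissue more cells of a type and more RNA per cell cannot be told apart. Macrophage markers were higher in Hdac3 CKO, as the desaturases were, while osteoblast markers were mixed. The summed CPM of 9 macrophage genes was 576, 546 and 500 in Hdac3 CKO and 271, 284 and 287 in WT, and 6 of the 9 rose. The summed CPM of 8 osteoblast genes, most of it Col1a1, was 61463, 51832 and 42376 in Hdac3 CKO and 26635, 29175 and 36725 in WT, without overlap. Col1a1 itself did not pass the test (edgeR adjusted p = 0.18). Of these 8 genes 6 stood above 0 and 2 below, and 1 rose and 0 fell. The gene that rose was Dmp1, a matrix protein of osteocytes, at 1.14 ± 0.21 (edgeR adjusted p = 0.041). It passed in 1 of 6 fits without single libraries. Ibsp, another bone matrix protein, stood at 1.21 ± 0.25 (edgeR adjusted p = 0.057). Runx2, the transcription factor of early osteoblasts, lay wholly below WT at -0.44 ± 0.16 (edgeR adjusted p = 0.25). Bglap stood at -0.23 ± 0.19, and its groups overlapped. The summed CPM of 11 adipocyte genes, most of it Fabp4, was 270, 196 and 239 in Hdac3 CKO and 203, 229 and 194 in WT, which overlap. Of the 9 adipocyte genes tested 0 rose and 0 fell in edgeR, 7 stood above 0, and Cidec, Pnpla2 and Plin4 lay wholly above WT, where 11.5% of all tested genes did. Cidec and Pnpla2 had an unadjusted p under 0.05, with adjusted p-values of 0.19 and 0.20 in edgeR. Adipoq was low, at 2.47, 1.06 and 2.40 CPM in Hdac3 CKO and 0.940, 3.65 and 1.36 CPM in WT. Ucp1, the defining gene of brown fat, rose, at 6.15, 2.19 and 5.14 CPM in Hdac3 CKO and 0.564, 0.776 and 0.854 CPM in WT, at a log2 fold change of 2.62 ± 0.40 (edgeR adjusted p = 0.021). Without single libraries Ucp1 passed in 2 of 6 fits, with adjusted p-values of 0.0057 to 0.089 in edgeR. The other brown fat genes tested, Cidea, Cox8b and Dio2, did not pass the test, and Cox8b lay wholly above WT at 0.67 ± 0.21 (edgeR adjusted p = 0.19). Summed CPM overlapped between the genotypes for 8 Schwann cell genes, most of it Pmp22, at 376.6 to 475 in Hdac3 CKO and 307 to 401 in WT. Of these 8 genes 0 rose and 1 fell, where 0.475% of all tested genes fell, and Pmp22 lay wholly above WT. Sums also overlapped for 10 sebocyte and epidermis genes, at 10.4 to 34.9 in Hdac3 CKO and 6.31 to 17.5 in WT. Blood cell genes were lower, with 9 erythroid genes summing to 170 to 213 CPM in Hdac3 CKO and 266 to 437 CPM in WT, and 8 neutrophil genes to 19.4 to 29.7 CPM in Hdac3 CKO and 88.2 to 262 CPM in WT. The part of macrophages, osteoblasts, fat cells, brown fat and blood cells in the rise of Scd1, Scd2 and Fads2 was not tested.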

How the data were processed

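RNA from limb bones of 1 day old pups was sequenced in 6 libraries, 3 labelled Hdac3 CKO and 3 labelled WT. Per the file headers, the deposited table holds raw counts of reads for each gene. It also holds the authors' RPKM, reads scaled by gene length and library total. The submitters' processing notes name the mm10 build and the tools featureCounts, Subread, TopHat2 2.1.0 and bcl2fastq 1.8.4. Not given in the sources used here are the annotation release, the strand setting and the treatment of multiply matching reads. The RPKM values equal the counts scaled by the listed gene length plus 1 base and by library totals larger than the sum over genes, which made up 72.1% to 87.0% of them.

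edgeR 4.0.16 under R 4.3.3 filtered out low counts and set TMM factors for the rest, which kept 20210 of 43346 genes with 99.9% of all counts. The genotypes were compared by the quasi-likelihood test of edgeR with robust moderation and no covariate, and Benjamini-Hochberg adjustment ran over all tested genes. Rose and fell are used of genes with an adjusted p under 0.05. Standard errors and 95% intervals of log2 fold changes come from that fit. The procedure was also run on simulated counts, where it detected 37.1% of the 2-fold differences put in and 94% of the 4-fold ones. Of its detections there, 5.8% had no true difference, and 0 had the wrong direction. Most 2-fold differences were therefore missed, and a gene that did not pass here may still differ between the genotypes. The alternatives were other scaling factors and filters, no robust moderation, DESeq2 1.42.0, limma 3.58.1 with voom or on log2(RPKM + 1) and log2(RPKM + 0.1), covariates for cartilage and muscle genes, and fits without single libraries. An earlier form of edgeR's estimate of the spread was added after seeing the data. The members and lists were chosen with earlier results of these data known. All 36 members are named, and of each companion list the 2 genes with the smallest p and any that passed, except for some that are not reported here. Marker lists of 10 cell types and tissues were read for their values only. Gene symbols were taken from the deposited table, and renamed genes were matched by gene ID through GENCODE M21. Total counts of 43389262 to 50927978 set the counting precision, and every member had at least 220 reads in every library. Whether each library is a separate animal is not stated in the labels, so p-values reflect how these libraries vary, and that variation may be partly technical.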

Additional observations from a re-analysis of the deposited data

How the results depend on the processing

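No paired analysis was possible because the labels do not pair any Hdac3 CKO library with a WT library. Replicate numbers here only count the libraries within each genotype, so equal numbers do not mark a pair. In place of 3 fatty acid synthesis genes that rose, 0 rose with library totals, with limma on log2(RPKM + 1) or log2(RPKM + 0.1), with the cartilage or muscle covariate, and without both WT replicate 3 and Hdac3 CKO replicate 3. Without single libraries 0 to 3 rose. The cause was not tested. The number of all genes called, 238, was 852 in DESeq2, 5 and 123 in limma on RPKM with a pseudocount of 1 and 0.1, 158 and 66 with the cartilage and muscle covariates, 0 without both replicates 3, and 23 to 175 without single libraries. Sterol synthesis and SREBP system genes called stayed at 0 in each direction in all 20 alternatives, and so did fatty acid synthesis genes called lower. Library totals shifted the median of all tested genes to -0.18, and 32.6% of the genes called were higher in place of 59.7%. With library totals the medians were 0.13 for the fatty acid branch, 0.022 for the SREBP system and -0.19 for the sterol branch, and relative to that shift 0.31, 0.21 and -0.0032. On log2(RPKM + 1) they were 0.17, 0.069 and -0.11, and on log2(RPKM + 0.1) 0.18, 0.073 and -0.13. With the muscle covariate they were 0.21, 0.11 and -0.077. The sterol median was -0.07 without both replicates 3. Without single libraries the medians were 0.24 to 0.37, 0.12 to 0.26 and -0.076 to 0.0027. Library totals gave 8 of the 36 members the opposite sign and the muscle covariate also 8, none of them genes that had passed.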

Other observations

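All 3 desaturase genes that rose lie on chromosome 19, which was noticed after their values were seen. Of 626 tested genes on chromosome 19, 9 rose (1.44%), the 3 desaturases among them, and 0 fell, where 0.703% of all tested genes rose. On chromosomes 8, 13 and 17 the share was 1.18%, 1.15% and 1.17%. Within the Scd cluster Scd4 stood at 0.42 ± 0.28 beside Scd3, both at low levels of up to 2.65 CPM. Next to Fads2, Fads3 stood at 56.7, 47.8 and 45.1 CPM in Hdac3 CKO and at 39.1, 40.4 and 49.7 CPM in WT, a log2 fold change of 0.21 ± 0.15, and its groups overlapped. Fads1 lies 81384 bases from Fads2.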
